A study of Mus musculus with 6 samples.

Results

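The genes described are 8 enzymes of amino acid breakdown in liver, Tat, Hpd, Hgd and Fah of the tyrosine route and Hal, Uroc1, Amdhd1 and Ftcd of the histidine route. They were chosen as a list of symbols from the 56305 genes of the expression table, and all 8 were found by symbol. RNA-Seq was performed on the livers of 3 WT and 3 Vps15LKO mice, with 1 library per liver. All 6 mice were males of 5 weeks, fed ad libitum and collected at ZT6 (6 h after lights on). Vps15LKO mice are AlbCre+;Vps15 f/f, so Cre driven by the albumin promoter removes part of Vps15 (gene symbol Pik3r4), the regulatory subunit of class 3 PI3K. The paper describes the deletion as specific to liver and chronic, and Vps15 was not measured by cell type here. The labels give the control group only as WT.

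Phenylalanine is broken down in hepatocytes by way of tyrosine. Tat removes the amino group of tyrosine in a step known to respond to glucocorticoids, Hpd converts the resulting keto acid to homogentisate, Hgd opens the ring, Gstz1 isomerizes the product, and Fah splits it into fumarate and acetoacetate. Histidine is deaminated to urocanate by Hal, hydrated by Uroc1, opened by Amdhd1 and passed by Ftcd to tetrahydrofolate, which leaves glutamate. Inherited loss of these enzymes causes tyrosinaemias (Tat, Hpd and Fah), alkaptonuria (Hgd) and histidinaemia (Hal).

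Transcript levels are given as normalized counts, the reads of a gene divided by the authors' size factor of the library. The libraries held 16137093 to 18110223 reads on genes. The size factors were 0.742 to 0.801 in WT and 1.23 to 1.41 in Vps15LKO libraries, so an equal share of the reads gives a lower normalized count in Vps15LKO liver. The 15430 genes that reached 20 normalized counts in 3 or more livers were compared with limma on log2(normalized count + 1). A gene was called when its Benjamini-Hochberg adjusted p was below 0.05 and its fold reached 1.2. No source ties single mice to litters, and p-values measure the spread between these livers. Pik3r4 had 508, 573 and 460 normalized counts in WT and 341, 362 and 355 in Vps15LKO livers, a log2 fold change of −0.54 (SE 0.11, limma adjusted p = 0.00207), but 0.19 when the libraries were scaled to equal read totals and 1.05 when a list of hepatocyte genes was held constant. In cells with the same floxed allele the study describes a truncated protein after recombination, and counts over the whole gene include exons outside the deleted part, so this value checks the labels only weakly.

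The transcripts of both routes were lower in the Vps15LKO livers at every step. All 8 passed the filter, in every liver, and all 8 were called lower, where 33% of the tested genes were called lower and 33.5% higher. In all 8 the highest Vps15LKO liver lay below the lowest WT liver, which held in that direction for 36.8% of the tested genes. The log2 fold changes ran from −3.36 to −1.74 with a median of −1.98, against −0.02 over all tested genes, and the smallest of the 8 falls was exceeded by 749 tested genes. With 12 hepatocyte genes held constant by their median ratio, 5 of the 8 were called lower (Tat, Hpd, Hal, Amdhd1 and Ftcd) and the other 3 were not called. Under that scaling 3.44% of the tested genes were called lower and 88.6% higher. In bulk liver RNA, fewer cells of a type and less RNA per cell cannot be told apart.

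**Figure D1:**
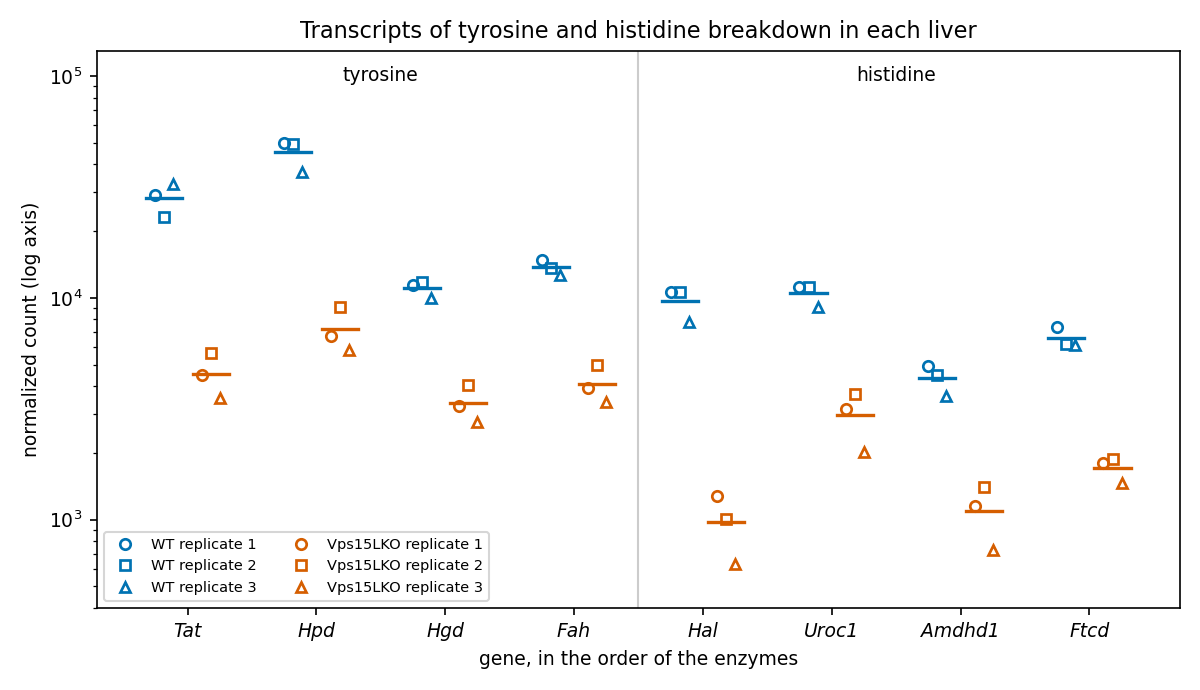
Normalized counts (log axis) of the 8 genes in each liver, in the order of the enzymes, with WT in blue and Vps15LKO in orange, 1 symbol per replicate and a bar at the mean of 3 livers. In each gene the 3 Vps15LKO livers lie below the 3 WT livers, and the gap is widest for Hal, the first enzyme of the histidine route.

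Tat, the aminotransferase that starts tyrosine breakdown (chromosome 8, 109990437 to 109999803, plus strand of GRCm38), had 29111, 23107 and 32496 normalized counts in WT livers 1 to 3 and 4474, 5619 and 3531 in Vps15LKO livers 1 to 3. Every Vps15LKO liver was far below the WT livers, which themselves spread more for Tat than for Hgd or Fah. The mean fell from 28238 ± 4755 to 4541 ± 1046 (SD, n = 3), a log2 fold change of −2.65 (SE 0.20, limma adjusted p = 1.12e-05). Hpd, the dioxygenase of the next step (chromosome 5, 123171807 to 123182727, minus strand), had 49933, 49598 and 36908 in WT and 6755, 9085 and 5834 in Vps15LKO livers. Per kilobase of exon it was the most abundant of the 8 in both genotypes. Its log2 fold change was −2.67 (SE 0.21, limma adjusted p = 1.37e-05), so the first 2 enzymes of the route were each more than 6 times lower (6.27-fold for Tat and 6.34-fold for Hpd).

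Hgd, the ring-opening dioxygenase (chromosome 16, 37580153 to 37632020, plus strand), had 11460, 11764 and 9970 normalized counts in WT and 3261, 4040 and 2741 in Vps15LKO livers. The groups were again apart, by less than for Tat and Hpd, with a log2 fold change of −1.74 (SE 0.16, limma adjusted p = 2.48e-05). Fah, the hydrolase that ends the route (chromosome 7, 84585159 to 84606722, minus strand), had 14840, 13660 and 12698 in WT and 3931, 4985 and 3387 in Vps15LKO livers. Its log2 fold change of −1.76 (SE 0.16, limma adjusted p = 2.48e-05) was close to that of Hgd, with both transcripts left at about 30% of WT (30.2% for Hgd and 29.9% for Fah).

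Hal, the ammonia-lyase that starts histidine breakdown (chromosome 10, 93488768 to 93519304, plus strand), had 10665, 10621 and 7805 normalized counts in WT and 1276, 1003 and 634 in Vps15LKO livers. This was the widest gap of the 8, with no Vps15LKO liver near the WT range. The mean fell from 9697 ± 1639 to 971 ± 322 (SD, n = 3), with a log2 fold change of −3.36 (SE 0.24, limma adjusted p = 8.71e-06), and 153 of the tested genes fell further. Uroc1, urocanate hydratase (chromosome 6, 90333284 to 90364551, plus strand), had 11228, 11167 and 9045 in WT and 3155, 3685 and 2026 in Vps15LKO livers, a log2 fold change of −1.86 (SE 0.21, limma adjusted p = 9.22e-05). Per kilobase of exon, Hal and Uroc1 stood at 1748 ± 295 and 3018 ± 358 normalized counts in the WT group, and further apart, at 175 ± 58.1 and 851 ± 244, in the Vps15LKO group.

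Amdhd1, the imidazolonepropionase (chromosome 10, 93523338 to 93540033, minus strand), had 4943, 4482 and 3606 normalized counts in WT and 1152, 1397 and 728 in Vps15LKO livers. It fell with a log2 fold change of −2.03 (SE 0.23, limma adjusted p = 8.25e-05). It lies tail to tail with Hal, with 4033 bases between the annotated ends of the genes. Ftcd, the enzyme that moves the formimino group to folate (chromosome 10, 76575648 to 76590338, plus strand), had 7347, 6203 and 6116 in WT and 1808, 1867 and 1465 in Vps15LKO livers. Its groups were the tightest of the histidine genes, with a log2 fold change of −1.94 (SE 0.13, limma adjusted p = 5.59e-06). The exons of none of the 8 genes overlap those of another annotated gene.

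Promoters are shown as examples for the first 2 tyrosine genes, which fell by nearly the same amount, and for Hal, which fell most. The promoter of Ftcd, which had the smallest standard error, is shown too. Which start sites these livers use was not measured. Each line gives the 200 bases before the RefSeq start (GRCm38.p6), 5′ to 3′ on the strand of the gene, with motif matches in capitals.
Tat, chr8:109990236-109990435, plus strand: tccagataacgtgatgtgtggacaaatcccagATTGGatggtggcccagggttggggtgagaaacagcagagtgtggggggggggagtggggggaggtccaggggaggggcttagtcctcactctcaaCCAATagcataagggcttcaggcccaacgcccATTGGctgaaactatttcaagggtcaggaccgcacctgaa
Hpd, chr5:123182724-123182923, minus strand: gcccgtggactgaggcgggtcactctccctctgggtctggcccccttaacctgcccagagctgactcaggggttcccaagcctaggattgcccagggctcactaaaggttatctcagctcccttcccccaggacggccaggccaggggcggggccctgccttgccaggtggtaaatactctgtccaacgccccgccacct
Hal, chr10:93488568-93488767, plus strand: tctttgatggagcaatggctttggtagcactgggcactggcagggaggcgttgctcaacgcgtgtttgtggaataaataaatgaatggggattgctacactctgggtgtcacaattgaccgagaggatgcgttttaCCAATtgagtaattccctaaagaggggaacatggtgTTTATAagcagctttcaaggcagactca
Ftcd, chr10:76575448-76575647, plus strand: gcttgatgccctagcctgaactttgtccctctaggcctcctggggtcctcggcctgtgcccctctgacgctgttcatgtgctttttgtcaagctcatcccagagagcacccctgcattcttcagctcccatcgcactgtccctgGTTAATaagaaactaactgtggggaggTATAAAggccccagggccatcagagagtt

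Motifs were searched on both strands in windows from 250 bases before to 50 bases after each RefSeq start, and all 8 genes had such a window. The window of Fah (84605893 to 84606192) lay inside the GENCODE gene, whose annotated span reaches 84606722 on the minus strand. The letters searched were CACGTG for the E-box, AGAACA for the core of the glucocorticoid receptor motif, GTTAAT for the core of the HNF1 motif, TATAAA for the TATA box and CCAAT for the CCAAT box, and none of these contains another. CCAAT was present in 4 of the 8 windows (Tat, Hgd, Hal and Uroc1) and in 37.4% of all 32851 windows. TATAAA was present in Hgd, Hal and Ftcd and in 13.6% of all windows. In Ftcd it lay on the strand of the gene, 29 bases before the start, and in Hal on the opposite strand, where it reads TTTATA in the line above. GTTAAT was found in Ftcd alone, 56 bases before the start, and in 7.1% of all windows. Neither CACGTG (7.15% of all windows) nor AGAACA (19% of all windows) was in any of the 8 windows, which says only that these letters are not in this stretch.

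Per kilobase of exon, the 8 transcripts spanned a wide range, and the rank order of the means was the same in both genotypes. In WT livers the order was Hpd at 21372 ± 3489 normalized counts per kb (SD, n = 3), Tat at 11742 ± 1977, Fah at 6192 ± 484, Hgd at 4231 ± 367, Uroc1 at 3018 ± 358, Ftcd at 2054 ± 215, Amdhd1 at 1794 ± 281 and Hal at 1748 ± 295. The ranges of Ftcd and Amdhd1 overlapped in WT livers, as did those of Amdhd1 and Hal, and the other 5 neighbouring pairs were apart. In Vps15LKO livers the means per kb ran from 3395 ± 787 for Hpd through 1888 ± 435 for Tat and 1849 ± 366 for Fah to 451 ± 140 for Amdhd1 and 175 ± 58 for Hal. There 5 of the 7 neighbouring pairs overlapped, and only Hpd above Tat and Amdhd1 above Hal were apart. Among 15412 tested genes with an exon length, Hpd ranked 63 by level per kb in WT and 205 in Vps15LKO livers, Tat 99 and 401, and Hal 650 and 3964.

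Ratios of 2 transcripts within a liver do not change when a library is scaled by a single factor. Of the 28 ratios among the 8 genes, 18 did not overlap between genotypes, a smaller share than the 75.4% of ratios between any 2 tested genes, so the 8 were not set apart from each other more often than genes at large. The log2 ratio of Tat to Hpd averaged −0.69 ± 0.47 for WT and −0.67 ± 0.07 for Vps15LKO livers (SD, n = 3), and that of Hgd to Fah was −0.37, −0.22 and −0.35 in WT and −0.27, −0.30 and −0.31 in Vps15LKO livers. Both pairs overlapped between genotypes, with mean differences of 0.02 each. Hpd over Hgd, in contrast, went from 2.12, 2.08 and 1.89 to 1.05, 1.17 and 1.09, and Tat over Hgd from 1.34, 0.97 and 1.70 to 0.46, 0.48 and 0.37. The first 2 steps of the tyrosine route thus fell by a further 0.93 (Hpd) and 0.91 (Tat) on the log2 scale than Hgd. Quantile normalization, which is no single factor, gave 0.56 and 0.73 for these differences.

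In the histidine route the first step stood apart from the rest. The log2 ratio of Hal to Uroc1 was −0.07, −0.07 and −0.21 in WT and −1.31, −1.88 and −1.67 in Vps15LKO livers. Hal also fell by 1.33 more than Amdhd1 and by 1.42 more than Ftcd, with no overlap between genotypes in either ratio. Uroc1, Amdhd1 and Ftcd differed from each other by −0.09 to 0.17 in their log2 changes, and of these 3 ratios only Uroc1 over Amdhd1 did not overlap. With 3 livers against 3, the smallest two-sided exact permutation p is 0.1 (0.156 after Benjamini-Hochberg adjustment over the 28 ratios), so no single ratio can pass 0.05.

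**Figure D2:**
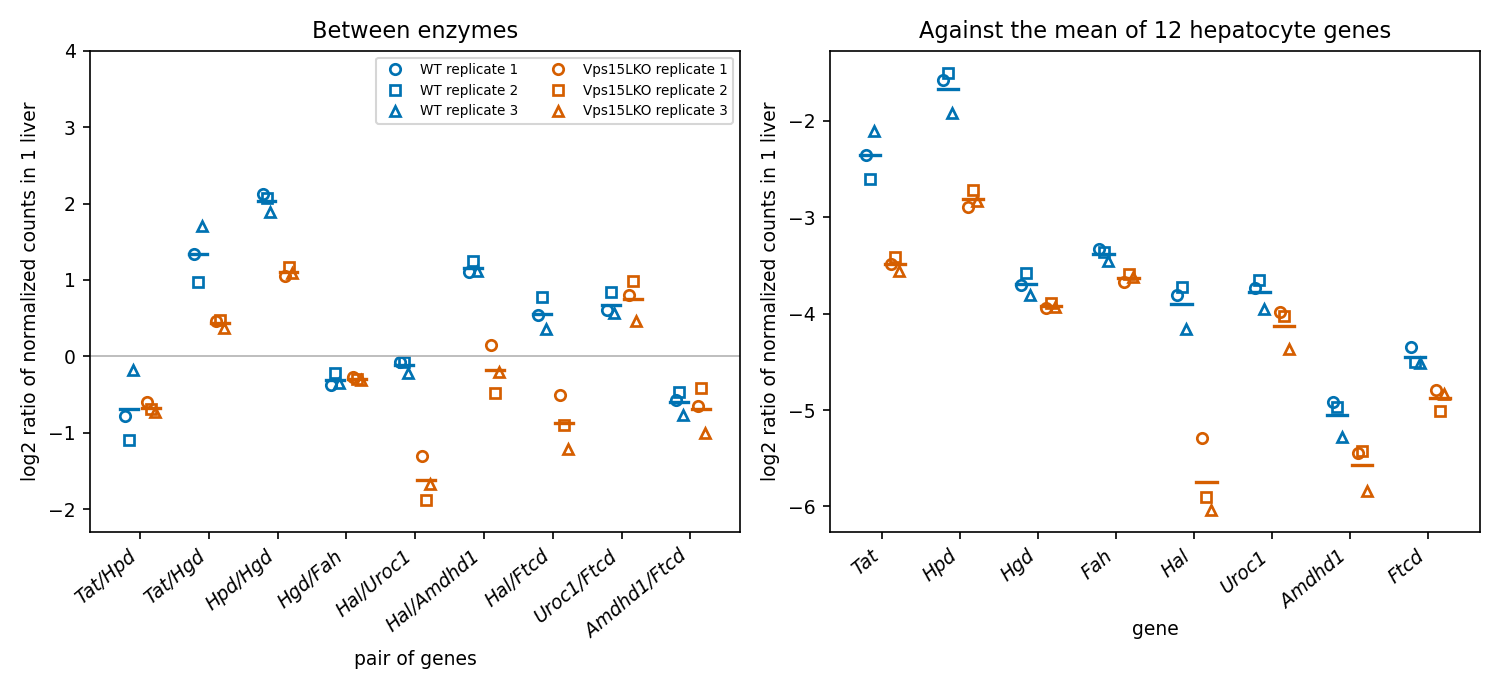
Left, log2 ratios of normalized counts between pairs of the 8 genes in each liver, and right, log2 ratio of each gene to the mean log2 level of 12 hepatocyte genes in the same liver; blue symbols are WT, orange symbols Vps15LKO, bars are means of 3 livers. Ratios of Hal to the other histidine genes, and those of Tat or Hpd to Hgd, are shifted down in Vps15LKO livers, Tat/Hpd and Hgd/Fah are not, and all 8 ratios to the hepatocyte genes are lower in Vps15LKO livers.

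With the authors' size factors the transcripts of a hepatocyte list were lower too, and most markers of other liver cells were higher. Of 12 hepatocyte genes such as Ttr and Apoa1, 9 were called lower and none higher, with a median log2 fold change of −1.60 (from −2.56 to −0.61). In all 12 the highest Vps15LKO liver lay below the lowest WT liver (36.8% of the tested genes). Alb was among the genes not called, at −1.48 (SE 1.38, limma adjusted p = 0.366), though its groups did not overlap. With quantile normalization 5 of the 12 were called lower and none higher, with a median of −0.34. Their share of the reads was 16.5% to 16.9% in WT and 9.55% to 12.2% in Vps15LKO libraries. All 5 cholangiocyte markers were called higher, with summed normalized counts of 662 to 787 in WT and 11426 to 22425 in Vps15LKO livers. All 7 stellate cell markers were called higher (sums of 5548 to 5721 against 25356 to 30740), as were 5 of 6 Kupffer cell and macrophage markers (6111 to 6758 against 14825 to 19818) and 4 of the 5 tested of 7 lymphocyte markers (86.2 to 119 against 217 to 261). With quantile normalization 2 of these 5 lymphocyte markers were called higher and 1 lower. Of 6 endothelial markers 3 were called higher and 3 lower, with sums of 5996 to 6460 and 4747 to 6254. With the hepatocyte list held constant all 6 were called higher, as were 88.6% of all tested genes. No marker in these lists was at 0 in any liver, and the part of these cell types in the fall of the 8 genes was not tested.

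The 8 enzymes fell further than the mean of the hepatocyte list, and Hal fell further than each gene in it. Hpd (−2.67, SE 0.21) and Tat (−2.65, SE 0.20) were about level with the largest fall in the list, Apoa2 (−2.56, SE 0.28). The log2 ratio of each enzyme to the mean log2 level of the 12 hepatocyte genes was taken within a liver. It was lower in all Vps15LKO than in all WT livers for 8 of 8 enzymes. Without overlap, 4% of the tested genes were lower in this ratio and 89.1% higher. The mean differences of this ratio were −1.85 for Hal, −1.15 for Hpd and −1.13 for Tat, and between −0.51 (Amdhd1) and −0.22 (Hgd) for the other 5. Hal over the hepatocyte list was −3.81, −3.72 and −4.16 in WT and −5.29, −5.90 and −6.04 in Vps15LKO livers. Hgd over the list was −3.70, −3.58 and −3.81 in WT and −3.94, −3.89 and −3.93 in Vps15LKO livers, a narrow gap. Against Alb alone all 8 ratios were also lower without overlap (4.26% of the tested genes). The exact permutation p of each of these ratios was 0.1, the smallest that 3 livers against 3 allow.

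The size of the falls depended on the scaling of the libraries, and 3 of the 8 genes were no longer called under one of the scalings tried. Scaled to equal read totals, which moved the median of all tested genes by 0.72 on the log2 scale, all 8 were called lower (11.1% of tested genes lower, 66.8% higher) with log2 fold changes of −2.64 (Hal), −1.94 (Hpd), −1.92 (Tat), −1.30 (Amdhd1), −1.21 (Ftcd), −1.14 (Uroc1), −1.03 (Fah) and −1.01 (Hgd). With quantile normalization all 8 were called lower (37.6% of tested genes lower), from −2.81 for Hal to −0.91 for Fah. Holding the 12 hepatocyte genes constant by their median ratio moved the median of all genes by 1.58. The log2 fold changes became −1.78 for Hal, −1.08 for Hpd, −1.06 for Tat, −0.44 for Amdhd1 and −0.35 for Ftcd. These 5 were called lower (3.44% of tested genes lower, 88.6% higher). The 12 hepatocyte genes themselves then ran from −0.97 to 0.98, with 3 called lower and 3 higher. The values of Amdhd1 and Ftcd lay inside that range. Under that scaling Uroc1 at −0.28, Fah at −0.17 and Hgd at −0.15 were not called (limma adjusted p = 0.0906, 0.263 and 0.331). Relative to the median of all genes each gene kept its distance under these single-factor scalings.

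**Figure D3:**
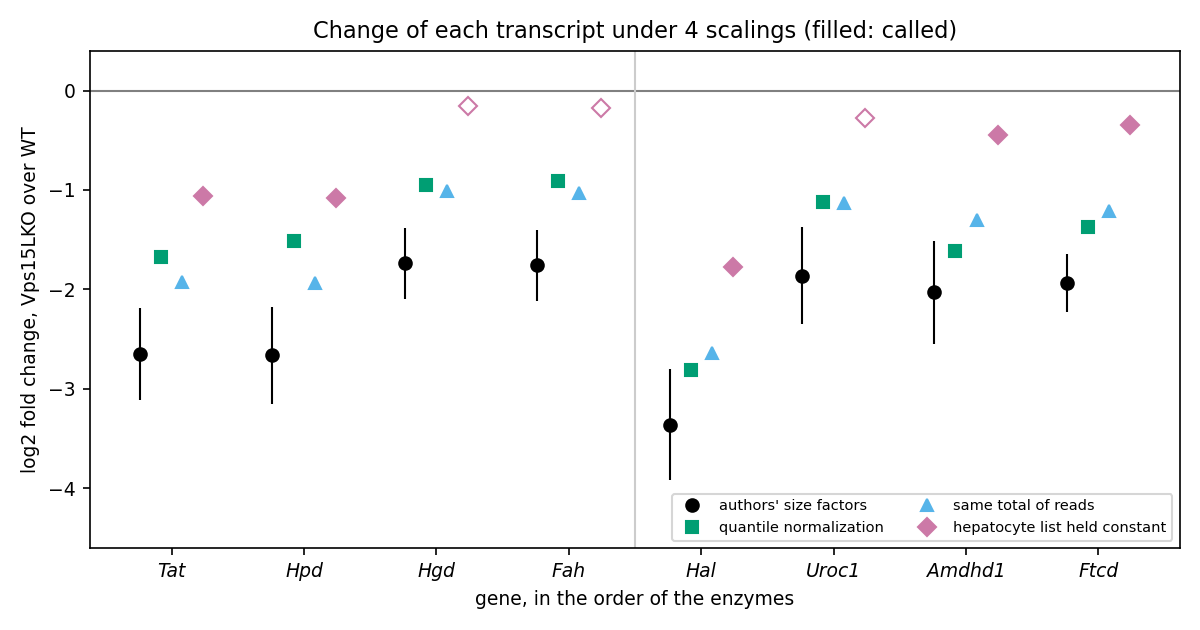
Log2 fold change, Vps15LKO over WT, of the 8 genes with the authors' size factors (black, bars are 95% intervals), quantile normalization (green), equal read totals (light blue) and the hepatocyte list held constant (pink); filled symbols were called. All values are below 0, Hal is lowest under each scaling, and Hgd, Fah and Uroc1 are not called with the hepatocyte list held constant.

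The livers of a genotype ranked much alike for the 8 genes. Within the Vps15LKO group, 7 of the 8 were highest in replicate 2 (Hal was highest in replicate 1) and all 8 were lowest in replicate 3. Alb and the sum of the 12 hepatocyte genes followed this order too, the 12 genes taking from 9.55% of the reads in replicate 3 to 12.2% in replicate 2. The summed cholangiocyte markers went the other way, with 14728, 11426 and 22425 normalized counts in Vps15LKO replicates 1 to 3. Within WT, 7 of the 8 were lowest in replicate 3, where Tat was highest and Alb lowest. Leaving out each liver in turn left all 8 called lower, with log2 fold changes of −3.59 to −3.08 for Hal, −2.81 to −2.48 for Tat, −2.84 to −2.52 for Hpd and −2.23 to −1.60 over the other 5.

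Around the 8 enzymes, other genes of phenylalanine and tyrosine breakdown depended on the scaling. Of the 4 genes of this list, 3 were called lower and none higher, with a median log2 fold change of −1.12. With equal read totals 2 were called lower and 1 higher. With the hepatocyte list held constant 1 was called lower and 2 higher, when the median was 0.46 and 88.6% of all tested genes were called higher. Gstz1, the maleylacetoacetate isomerase between Hgd and Fah, had 19034, 17867 and 14726 normalized counts in WT and 4649, 5684 and 3598 in Vps15LKO livers. This was a log2 fold change of −1.91 (SE 0.19, limma adjusted p = 3.92e-05), between those of its neighbours in the route and those of Tat and Hpd. Dnajc12, a J-domain cochaperone, was not called, with 149, 117 and 125 normalized counts in WT and 163, 152 and 190 in Vps15LKO livers (limma adjusted p = 0.0524). Its groups did not overlap. It was called higher by edgeR (adjusted p = 0.0365) but not by DESeq2 (adjusted p = 0.0629), and its log2 fold change ran from 0.045 with quantile normalization to 1.94 with the hepatocyte list held constant.

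All 7 tested genes for the synthesis and recycling of tetrahydrobiopterin, a cofactor of amino acid metabolism, were called lower. Their median log2 fold change was −1.03, which became 0.55 with the hepatocyte list held constant. None was then called lower and 5 were called higher, where 88.6% of all tested genes were called higher. Qdpr, which regenerates the cofactor, changed by −1.91 (limma adjusted p = 1.44e-05), from 5651 ± 848 to 1509 ± 247 normalized counts (SD, n = 3). Gchfr, the feedback regulator of the first enzyme of cofactor synthesis, changed by −1.68 (limma adjusted p = 4.32e-05).

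Other fates of the 2 amino acids did not all move the same way. Of 8 genes for other fates of tyrosine, such as monoamine synthesis and breakdown, 5 were tested, 4 of them called lower and 1 higher. These counts were 1 lower and 1 higher with quantile normalization, and 1 lower and 3 higher with the hepatocyte list held constant. The latter scaling called 3.44% of all tested genes lower and 88.6% higher. The monoamine oxidases were opposed. Maoa had 221, 214 and 132 normalized counts in WT and 2158, 1773 and 1950 in Vps15LKO livers, 10.6-fold higher, with a log2 fold change of 3.40 (SE 0.19, limma adjusted p = 2.49e-06). Maob had 5422, 5144 and 4075 in WT and 1292, 1591 and 975 in Vps15LKO livers, with a log2 fold change of −1.94 (SE 0.18, limma adjusted p = 3.39e-05). Per kilobase of exon, Maoa and Maob stood at 45.4 ± 11.9 and 1750 ± 255 normalized counts in the WT group, and close together, at 470.4 ± 46.3 and 461 ± 110.3, in the Vps15LKO group. Of 7 genes for other fates of histidine, such as histamine and carnosine, 5 were tested, 2 of them called lower and 1 higher. With the hepatocyte list held constant all 5 were called higher, as were 88.6% of all tested genes. The gene called higher with the authors' size factors was Cndp2, a cytosolic dipeptidase, which rose from 721 ± 22.8 to 1823 ± 135 normalized counts (SD, n = 3), a log2 fold change of 1.33 (limma adjusted p = 6.21e-06).

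The products of both routes are handled by ketone body, fumarate, glutamate and folate enzymes, and of 10 such genes 9 were called lower and 1 higher, with a median log2 fold change of −0.95 (0.63 with the hepatocyte list held constant, when none was called lower and 6 higher). Aldh1l1, which oxidizes formyl-tetrahydrofolate, changed by −1.81 (limma adjusted p = 5.51e-05), and Mthfd1, which interconverts the folate carriers, by −1.64 (limma adjusted p = 2.12e-05). The gene called higher was Oxct1, which uses acetoacetate and is normally low in hepatocytes. Oxct1 rose from 67.6, 81.2 and 99.8 to 328, 369 and 396 normalized counts, a log2 fold change of 2.14 (limma adjusted p = 1.07e-05). Over these 5 lists, 31 of 36 genes were tested, 25 of them called lower and 3 higher, with a median log2 fold change of −0.71. With equal read totals 12 were called lower and 6 higher (11.1% and 66.8% of all tested genes). With the hepatocyte list held constant 2 were called lower and 21 higher (3.44% and 88.6% of all tested genes). The exons of Gstz1, Qdpr, Aldh1l1, Mthfd1 and Oxct1 overlap those of another annotated gene, and whether reads were counted by strand is not given in the sources used here, so their counts may include reads of that gene.

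**Figure D4:**
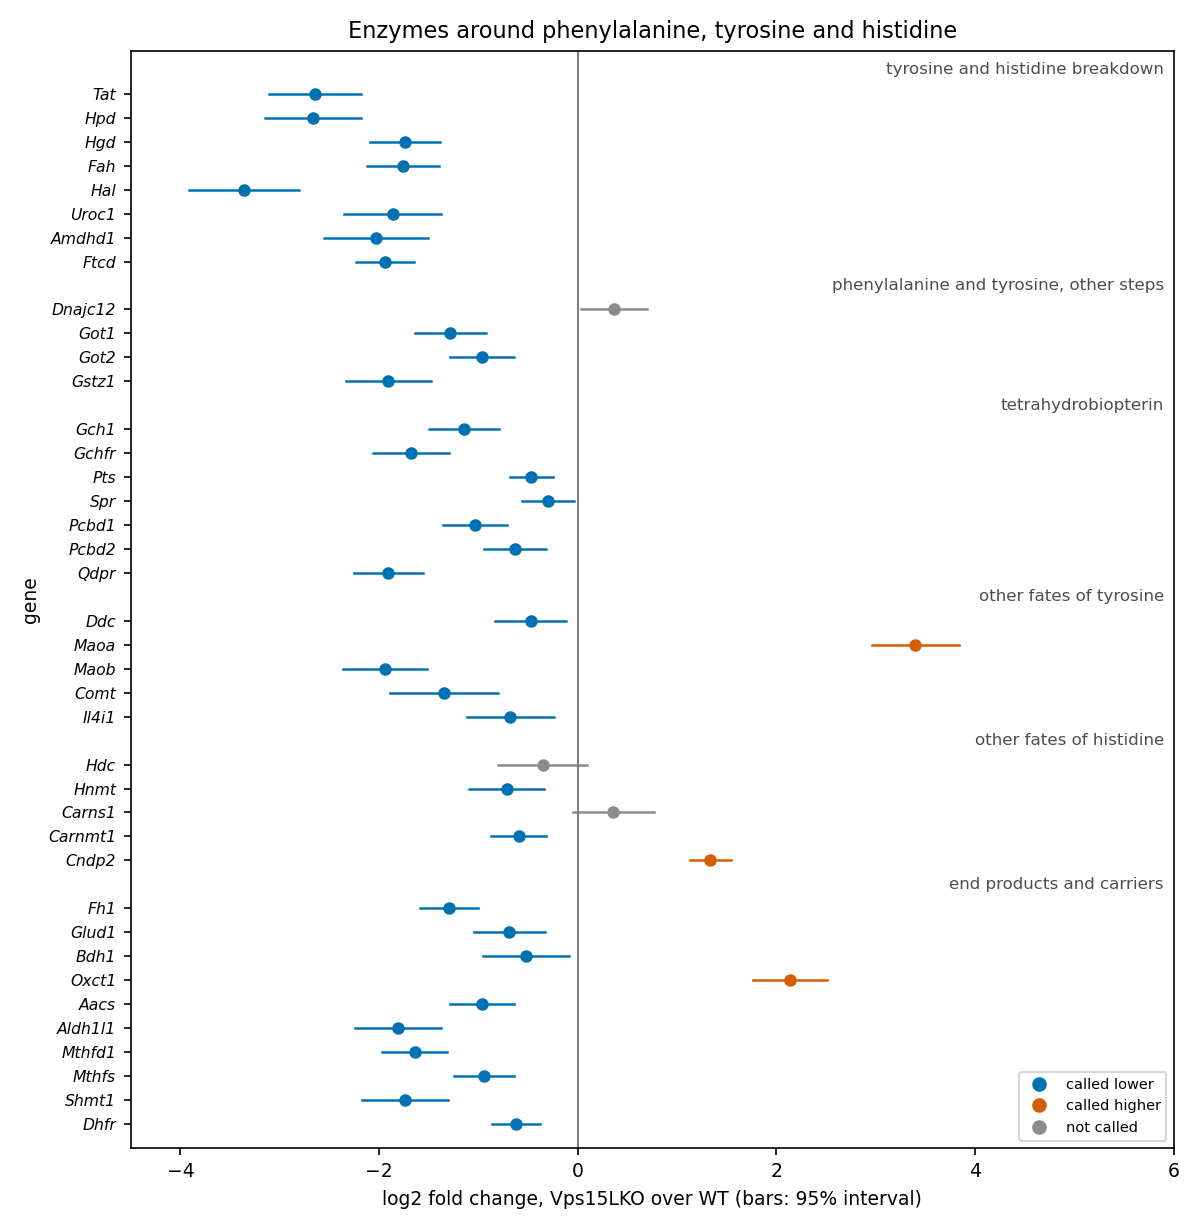
Log2 fold change, Vps15LKO over WT, with the 95% interval from limma for the 8 enzymes and 31 tested genes around them; blue, called lower, orange, called higher, grey, not called. Of these 31, 25 lie below 0 and were called, while Maoa, Oxct1 and Cndp2 were called higher. With the hepatocyte list held constant, 2 were called lower and 21 higher (3.44% and 88.6% of all tested genes).

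Transcription factors and cofactors known to act on hepatocyte metabolism were mostly lower with the authors' size factors, but not under each scaling. Of 13 such regulators 11 were called lower and none higher, with a median log2 fold change of −0.91. These counts were 4 lower and 1 higher with equal read totals, and 3 lower and 8 higher with the hepatocyte list held constant. In the latter the median was 0.67, and 88.6% of all tested genes were called higher. Klf15, a factor known to induce amino acid breakdown in fasting, had 4406, 3687 and 3873 normalized counts in WT and 779, 882 and 659 in Vps15LKO livers, a log2 fold change of −2.37 (SE 0.13, limma adjusted p = 1.94e-06). Cebpa, a hepatocyte factor with a role in amino acid metabolism, changed by −1.94 (limma adjusted p = 2.83e-05). Nr3c1, the glucocorticoid receptor, changed by −0.75 (limma adjusted p = 0.000282), and by 0.84 with the hepatocyte list held constant. Of 8 other known glucocorticoid targets 3 were called lower, 1 higher and 4 not called. With the hepatocyte list held constant 2 of them were called lower and 4 higher, and their median log2 fold change went from −0.73 to 0.86. Pck1, a gluconeogenic enzyme, fell with a log2 fold change of −3.03 (limma adjusted p = 1.76e-05), while Sgk1, a kinase, rose by 1.11 (limma adjusted p = 0.000931).

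Other routes of amino acid breakdown were lower in the same livers. The 7 genes of tryptophan breakdown were all called lower, with a median log2 fold change of −2.52, as were the 6 of the urea cycle (−2.01) and the 18 of branched-chain amino acid breakdown (−1.52), beside −1.98 for the 8 genes. With the hepatocyte list held constant, 5 of the 8 tyrosine and histidine genes were called lower, 5 of the 7 for tryptophan (1 higher), 4 of the 6 for the urea cycle and 0 of the 18 for branched-chain amino acids, of which 3 were then called higher. Over all tested genes 33% were called lower with the authors' size factors. With the hepatocyte list held constant 3.44% were called lower and 88.6% higher. These lists share livers and controls, and no difference between lists was tested.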

How the data were processed

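RNA-Seq libraries of 3 WT and 3 Vps15LKO livers were made by the authors from poly(A) RNA with a kit that marks strand. Per the labels and methods, reads were mapped to GRCm38 with HISAT2, counted per gene with featureCounts and normalized with DESeq2. Versions and the strand setting are not given in the sources used here. What the authors deposited is a signal, gene counts over the size factor of their library. Values above 0 were whole numbers of reads (tolerance 0.001) once divided by what 1 read is worth, in 100% of cases, which gave back 16137093 to 18110223 reads per library. No column was left unused (0). The spread between livers includes counting error, so no counting interval is given.

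Symbols, coordinates and exon lengths come from GENCODE release M21 (55227 of 56305 genes matched), promoters from RefSeq (GRCm38.p6). Genes reaching 20 normalized counts in 3 or more livers were compared with limma 3.58.1 (lmFit, eBayes with a trend) in R 4.3.3 on log2(normalized count + 1), which understates changes of low genes, with Benjamini-Hochberg adjustment over 15430 genes. A call required a fold of 1.2 or more and an adjusted p below 0.05. The comparison was tested on simulated data. No library was a copy of another (chi-square per gene of 9.51 to 24.2 between replicates).

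The named genes are the 8 members, members of the lists around them, Pik3r4, and the 5 genes nearest to their mean profile. The members and lists were chosen with earlier results of these data known, and some genes of the lists are not reported here. Alternatives were pseudocounts of 0.1 and 10, other filters, scalings and thresholds, DESeq2 1.42.0, edgeR 4.0.16 and voom on the reads given back, limma with no trend, each replicate left out, and replicate number as a block. The ratios within a liver were added after the data were seen, as was the exact form of the hepatocyte-list scaling, a median over 12 genes of the ratio to each gene's geometric mean.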

Additional observations from a re-analysis of the deposited data

How the results depend on the processing

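All 8 genes stayed called lower under 21 of the 22 alternatives. The exception was the scaling that holds the hepatocyte list constant, with 5 called lower. That scaling gave 531 genes called lower and 13675 higher over all tested genes (5099 and 5163 with the authors' size factors), and 2 and 21 among the 31 tested genes around the 8 enzymes. Scaling to equal read totals gave 1712 and 10300 over all genes and 12 and 6 around the enzymes. Both move every gene by a near-constant amount, by construction. A fold of at least 2 gave 1957 lower and 3228 higher over all genes, and 12 lower around the enzymes. With the hepatocyte list held constant, the log2 fold changes of Nr3c1 (0.84) and Pik3r4 (1.05) turned positive, and Pik3r4 was at 0.19 with equal read totals. With each liver left out in turn, 8 of the enzymes were called lower every time and 0 higher, with 21 to 25 of the genes around them called lower and 3 to 4 higher, and 4450 to 5070 of all genes lower and 4648 to 5152 higher. Of 704 comparisons of single genes with an alternative, 681 kept their direction and side of the threshold. edgeR on the recovered reads called 10205 genes.

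With replicate number as a block, 8 of the enzymes were called lower, as were 25 of the genes around them (3 higher), and 4983 genes in all were called lower and 5065 higher. The deviations of same-numbered livers correlated at −0.00992, −0.0114 and 0.0485 over all tested genes, which gave no sign of pairing by number. Such values cannot show that same-numbered mice came from different litters. The paper states that breeding aimed at both genotypes within a litter. The block changed none of the calls of the 8 enzymes. The lowest value of the 8 genes in any liver was 634 normalized counts, and 3 livers a group limit the exact permutation tests to p = 0.1.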

Other observations

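Transporters of aromatic amino acids and histidine did not all move one way. Of 9 such genes 8 were tested, 2 of them called lower and 4 higher. These counts were 3 and 3 with quantile normalization, and 1 and 6 with the hepatocyte list held constant, when 88.6% of all tested genes were called higher. Slc38a3, which carries histidine and glutamine into hepatocytes, had 73220, 69546 and 58615 normalized counts in WT and 16608, 18653 and 13100 in Vps15LKO livers, a log2 fold change of −2.07 (SE 0.21, limma adjusted p = 5.39e-05). Slc16a10, the aromatic amino acid transporter TAT1, changed by −1.76 (limma adjusted p = 1.55e-05), but with the hepatocyte list held constant it was at −0.18 and not called, while Slc38a3 was still called lower at −0.48. Slc7a8 and its partner Slc3a2, the light and heavy chains of a neutral amino acid exchanger, changed by 2.40 and 1.59 (limma adjusted p = 2.41e-06 and 7.25e-06), and Slc43a2 by 1.85 (limma adjusted p = 1.57e-06). Slc7a8 had 192, 215 and 256 normalized counts in WT and 1251, 1229 and 1018 in Vps15LKO livers.

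Enzymes related to the 8 by name or reaction were measured as well. Of 9 such genes 6 were tested, 5 of them called lower and 1 higher, with a median log2 fold change of −1.47. With the hepatocyte list held constant 2 were called lower and 2 higher (3.44% and 88.6% of all tested genes), with a median of 0.12. Kyat1, an aminotransferase that also acts on aromatic amino acids, changed by −2.24 (limma adjusted p = 1.46e-05), and Fahd1, of the fumarylacetoacetate hydrolase family, by −1.63 (limma adjusted p = 0.000182). With the hepatocyte list held constant Kyat1 was still called lower at −0.65, and Fahd1 at −0.05 was not called. Amdhd2, an amidohydrolase of amino sugar metabolism, had 447, 428 and 396 normalized counts in WT and 733, 664 and 697 in Vps15LKO livers, a log2 fold change of 0.72 (limma adjusted p = 0.000174).

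Markers of both ends of the liver lobule were mostly lower. Of 7 periportal markers 5 were called lower and 1 higher, with a median log2 fold change of −2.49. With the hepatocyte list held constant 5 of them were called lower and 2 higher, with a median of −0.90. Of 8 pericentral markers 6 were called lower and 1 higher, with a median of −1.58. This became 0.00 with the hepatocyte list held constant, when 4 were called lower and 4 higher. That scaling called 3.44% of all tested genes lower and 88.6% higher.

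Among 11240 tested genes whose mean reached 100 normalized counts, the 5 whose log2 profile over the 6 livers lay nearest to the mean profile of the 8 enzymes were Tprkb (Euclidean distance of 0.170), Arhgef37 (0.181), Notumos (0.185), Mlxipl (0.209) and Cyp2d10 (0.212). Of the 8 enzymes themselves, Hgd and Fah lay nearest to each other (0.128), followed by Uroc1 and Amdhd1 (0.315), by Ftcd, whose nearest was Fah (0.388), and by Tat and Hpd (0.666), while Hal lay 1.37 from its nearest, Hpd.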
